A study of Sorghum bicolor with 12 samples.

Results

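The comparison set the internode group coded Ds2 beside the group coded Ds1, 4 of the 12 libraries of the series. Both groups are middle stem internodes of CSH22SS, a hybrid sweet sorghum (Sorghum bicolor) raised in an open field, sampled at booting. Each group has 2 libraries, and the authors deposited 1 FPKM value per locus for each group. Booting without a Ds code, Ds3, the milky stage and physiological maturity, with 2 libraries each, served only for reference. The header over the Ds columns names water limitation, but the code Ds is not spelled out, and neither the length nor the severity of a treatment, nor whether the numbers follow each other in time, is given. No label says whether the libraries came from separate plants, and since 1 value per group carries no spread, no difference here has a replicate check or a p-value. FPKM is a fragment count scaled by transcript length and library size, and read depth is unknown.

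The loci compared were the 33391 of 34718 in the water-limiting part of the table that carry a gene name. Of these, 9145 reached 10 FPKM in Ds1 or Ds2. A locus is described as higher or lower in Ds2 where the ratio of FPKM + 1 was at least 4, that is, a difference of at least 2 on the log2(FPKM + 1) scale. Differences of low genes come out too small on that scale. This is a rule of size and not a test. Gene names in the table are sorghum gene model identifiers, and the reference gene list available here matched 0 of them, so no function is given for any gene below and the tissue could not be checked against marker genes.

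The sorghum stem is built of internodes that lengthen from a growth zone at their base, after which their cells thicken their walls and, in sweet types, store sucrose in the parenchyma. When water runs short, plants make abscisic acid, close their stomata, slow growth and switch on genes for protective proteins and compatible solutes. Sets of genes that respond together can be spread over the genome or lie next to each other, as in tandem arrays of duplicated genes and in clusters for specialised metabolism.

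Most of the internode transcriptome lay close together in Ds1 and Ds2. Of the 9145 loci, 8052 (88.0%) were less than 2-fold apart, and the median log2 difference, Ds2 minus Ds1, was -0.08. By the size rule 76 loci were higher in Ds2, which is 0.831% of those compared, and 221 were lower, which is 2.42%, together 3.25%. In bulk tissue fewer cells of a kind and less RNA per cell cannot be told apart. The differences also reached further downwards. Among the lower loci 86 were at least 8-fold apart, 39 at least 16-fold and 10 at least 32-fold, against 17, 3 and 0 of the higher loci. Total FPKM over all loci was 885374 in Ds1 and 682190 in Ds2 and, for reference, 477138 in booting and 647608 in Ds3. When the 20 loci that ranked among the 10 most abundant of any group were left out and the remaining totals made equal, the split was 92 higher to 155 lower, with the median of all loci at 0.18 in place of -0.08.

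**Figure D1:**
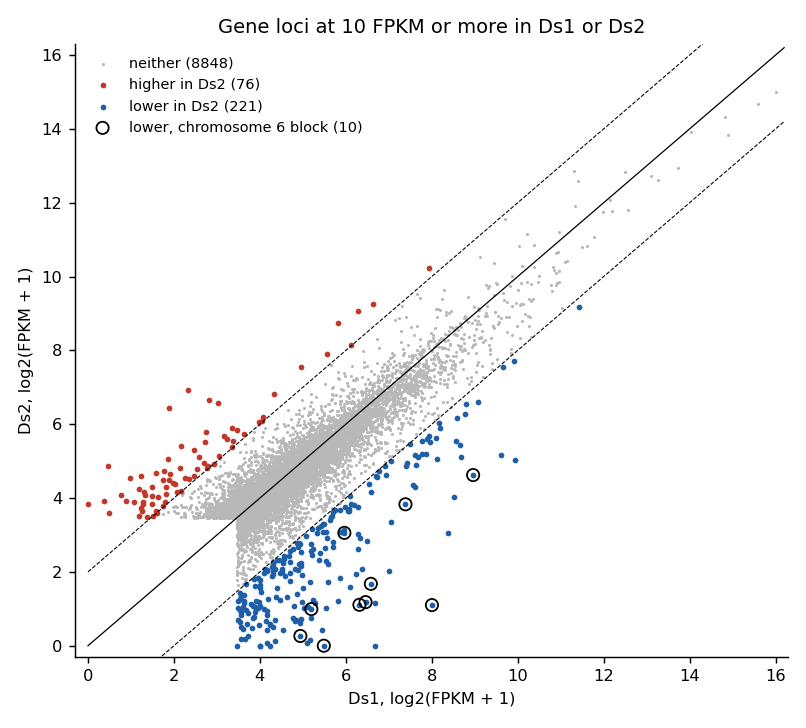
Each point is a gene locus at 10 FPKM or more in Ds1 or Ds2, with log2(FPKM + 1) in Ds1 on the horizontal axis and in Ds2 on the vertical axis; the solid line marks equal values and the dashed lines a 4-fold ratio. The 76 higher loci (red) sit mostly at low Ds1 values, the 221 lower loci (blue) reach further from the line, and rings mark 10 lower loci from 1 stretch of chromosome 6.

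The genes furthest above Ds1 in Ds2 read close to 0 at booting in most cases. Sobic.001G208500 read 0 FPKM at booting, 4.04 at Ds1, 119.7 at Ds2 and 63.4 at Ds3, a log2 difference between Ds2 and Ds1 of 4.58. Sobic.001G515700 read 0, 2.71, 85.5 and 128 FPKM in the same order, a difference of 4.54. Both are thus high in Ds2 and Ds3 and low in the other groups. Sobic.005G062500 read 0 FPKM at booting, 5.99 at Ds1, 100.7 at Ds2 and 62.5 at Ds3, and Sobic.004G195300 read 0.0143, 0.975, 22.3 and 26.8. All 4 also read under 0.05 FPKM at the milky stage and at maturity, where the developmental part of the table lists 3 of them at 0.

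Of the 12 genes furthest above Ds1 in Ds2, counted among genes whose name no other locus shares, 10 read under 1 FPKM in booting and 10 were above their booting value in Ds3. Sobic.004G259366 departed from this, with 161 FPKM at booting, 7.18 at Ds1, 94.8 at Ds2 and 53.2 at Ds3. It was therefore highest at booting and lowest in Ds1, and it read 12.1 FPKM at the milky stage and 10.2 at maturity. Sobic.009G148400 was listed at 0 in booting, Ds1 and Ds3 and read 13.3 FPKM in Ds2, a value that rests on 1 group alone. With a pseudocount of 5 its log2 difference was 1.87, under the size rule, as were those of Sobic.001G373600, at 1.85, and Sobic.001G497700, at 1.88. Sobic.001G155600 read 0.0217 FPKM at booting, 1.33 at Ds1, 23.2 at Ds2 and 4.10 at Ds3, so its level in Ds3 was closer to Ds1 than to Ds2 on either scale. Sobic.001G373600 and Sobic.001G497700, both listed at 0 in booting, read 14.1 and 16.0 FPKM in Ds2 and 5.17 and 7.07 in Ds3. Sobic.006G214600 read 1.56 FPKM at booting, 3.47 at Ds1, 41.5 at Ds2 and 28.2 at Ds3.

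Over all 76 higher loci, the median FPKM was 0.714 at booting and 3.14 in Ds1, and it was 24.3 in Ds2 and 24.4 in Ds3. The Ds1 and Ds2 medians follow from the way the loci were chosen, whereas booting and Ds3 played no part in the choice. In booting 43 of the 76 read under 1 FPKM, against 3.13% of all loci compared, and 14 were listed at 0. All loci compared are no level-matched reference, because their median in Ds1 was 23.5 FPKM. A set chosen for low Ds1 levels may also be low at booting, and no set of like Ds1 level was compared. Among the 14 that read at least 10 FPKM in booting, the medians were 22.5 FPKM at booting, 8.55 at Ds1, 51.2 at Ds2 and 47.1 at Ds3. In Ds2 10 of the 76 reached 100 FPKM, against 798 of all 9145 loci compared. The highest of the 10 was Sobic.003G064300, with 476 FPKM at booting, 242 at Ds1, 1194 at Ds2 and 1672 at Ds3, followed by Sobic.001G492000, with 0.0078, 98.9, 608 and 434.

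Several of the genes furthest below Ds1 in Ds2 were high in Ds1 and close to 0 in Ds2. Sobic.006G025900 read 1.12 FPKM at booting, 255.5 at Ds1, 1.14 at Ds2 and 0.418 at Ds3, the largest difference of all loci compared, at -6.90 log2. Sobic.010G246700 read 0.611, 101.2, 1.21 and 0.431 FPKM in that order, a difference of -5.53. Both stand out in Ds1 alone, and in the developmental part neither exceeded 2.4 FPKM at booting, the milky stage or maturity. Sobic.010G044500, the most abundant of the 12 in Ds1, read 4.36 FPKM at booting, 978 at Ds1, 31.4 at Ds2 and 4.52 at Ds3. Its Ds2 value lay between a high Ds1 and a Ds3 level close to booting.

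Others of the 12 genes furthest below Ds1, counted again without genes that share a name between loci, were already expressed at booting. Sobic.001G291200 read 106 FPKM at booting, 332 at Ds1, 7.34 at Ds2 and 3.15 at Ds3, a log2 difference of -5.32. Sobic.001G516000 read 55.5, 42.2, 0.333 and 0.653 FPKM, so booting and Ds1 were alike in level and Ds2 and Ds3 were near 0. At the milky stage, in the separately scaled developmental part, the same gene read 333 FPKM. Sobic.007G122500 read 18.3 FPKM at booting, 127 at Ds1, 3.04 at Ds2 and 0.745 at Ds3, and Sobic.005G046700 read 15.7, 35.2, 0.109 and 0.789. The latter was also low at the milky stage, with 0.184 FPKM, and at maturity, with 1.03.

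**Figure D2:**
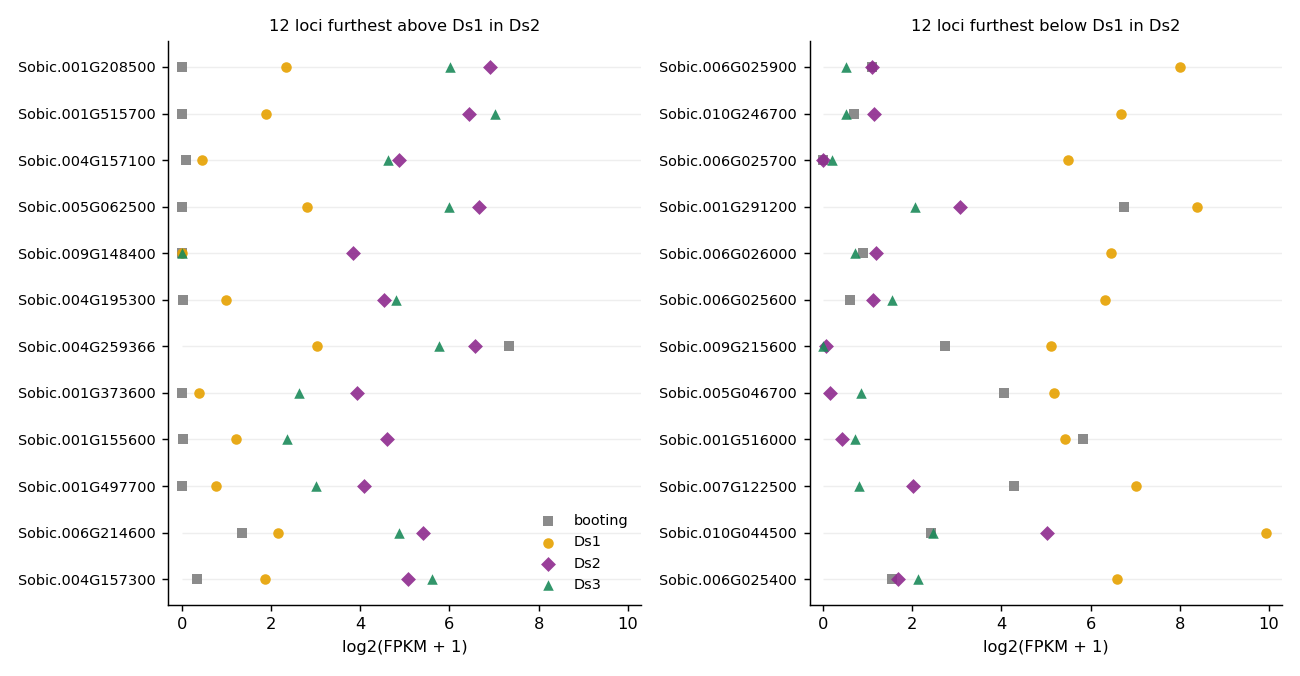
Levels of the 12 genes furthest above Ds1 in Ds2 (left) and the 12 furthest below (right), as log2(FPKM + 1) on the horizontal axis, with 1 marker for each of booting, Ds1, Ds2 and Ds3. On the left most booting markers sit at or near 0 and most Ds3 markers lie nearer Ds2 than Ds1; on the right Ds1 stands to the right of the other groups for all genes but Sobic.001G516000, whose booting marker is further out.

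Over the 221 lower loci, the median level was 7.74 FPKM at booting, 31.3 at Ds1, 3.19 at Ds2 and 2.90 at Ds3. In booting 32 of them read under 1 FPKM, with a median of 33.8 FPKM in Ds1 and of 2.18 in both later-numbered groups. The 91 that read from 1 to 10 FPKM in booting had medians of 4.19, 22.6, 2.20 and 2.08 FPKM in the same order of groups, and the 98 at 10 FPKM or more had medians of 26.2, 49.4, 5.83 and 3.82. In all 3 classes, then, the Ds3 median was at or under the Ds2 median. Of the 221 loci 45 reached 100 FPKM in Ds1, against 1000 of all 9145 loci compared. In Ds2 3 of the 221 did so, against 798 of all. These 3 were Sobic.010G230100, with 2730 FPKM in Ds1 and 577 in Ds2, Sobic.006G053050, with 969.7 and 209.8, and Sobic.004G161751, with 810.3 and 184.7, named after their values were seen.

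Some of the lower genes lay close together on a chromosome. Of the 12 genes furthest below Ds1, 5 lie in 1 stretch of chromosome 6, from Sobic.006G024800 to Sobic.006G026700. The stretch was singled out after these values were seen, and its end genes are themselves lower genes. Its share of lower genes is thus high in part by construction. It holds 22 named genes, of which 13 reached 10 FPKM in Ds1 or Ds2, and 10 of those 13 were lower in Ds2, against the 2.42% of all loci. None was higher. The 10 genes make up 4.52% of all lower loci.

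The stretch has 2 sides that differ in booting. On the first side, 7 lower genes from Sobic.006G024800 to Sobic.006G026100 summed to 29.3 FPKM at booting, 1087 at Ds1, 29.6 at Ds2 and 28.8 at Ds3. Sobic.006G026100 was the most abundant, with 24.6 FPKM at booting, 497.8 at Ds1, 23.6 at Ds2 and 21.7 at Ds3. Sobic.006G025400 read 1.93, 94.8, 2.20 and 3.38 FPKM, Sobic.006G026000 read 0.867, 87.0, 1.27 and 0.638, and Sobic.006G025600 read 0.525, 78.7, 1.16 and 1.93. Sobic.006G025700 was listed at 0 in booting and Ds2 and read 43.9 FPKM in Ds1 and 0.143 in Ds3, and Sobic.006G024800 read 0.288, 29.7, 0.201 and 0.612. All 7 genes were thus highest in Ds1, with values in Ds2 and Ds3 near those of booting.

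On the other side, Sobic.006G026400, Sobic.006G026600 and Sobic.006G026700 were already expressed at booting. Sobic.006G026400 read 413 FPKM at booting, 166 at Ds1, 13.2 at Ds2 and 1.41 at Ds3. Sobic.006G026700 read 86.7, 61.5, 7.32 and 1.59 FPKM, and Sobic.006G026600 read 9.69, 35.7, 0.990 and 0.312. Together the 3 genes summed to 509 FPKM at booting, 264 at Ds1, 21.5 at Ds2 and 3.31 at Ds3, so booting was highest and Ds3 lowest. Sobic.006G026300, which lies between the sides and stayed under 10 FPKM, read 9.76 FPKM in Ds1 and 0.318 in Ds2, and Sobic.006G025800 read 3.24 FPKM in Ds1 and was listed at 0 in Ds2.

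Genes inside and beside the stretch that did not follow it give its limits. Sobic.006G025000 read 31.5 FPKM in Ds1 and 24.7 in Ds2, Sobic.006G025300 read 8.55 and 10.6, and Sobic.006G026250 read 15.7 and 15.3. Before the stretch, Sobic.006G024500, Sobic.006G024600 and Sobic.006G024700 read 29.2, 2.26 and 4.22 FPKM in Ds1 and 48.5, 6.404 and 4.94 in Ds2. Those after it, Sobic.006G027000 and Sobic.006G027200, read 21.6 and 25.03 FPKM in Ds1 and 20.3 and 29.99 in Ds2. In the developmental part several genes of the stretch were assembled into joint loci, so reads of these neighbours may not be separable. There Sobic.006G025400 with Sobic.006G025700 read 2.10 FPKM at booting, 16.4 at the milky stage and 0.667 at maturity, and Sobic.006G026600 with Sobic.006G026700 read 152, 498 and 185. Whether the genes are copies of each other was not analysed here. All 10 remained lower by the size rule with pseudocounts of 0.1 and 5 and under each of the 3 other scalings tried.

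**Figure D3:**
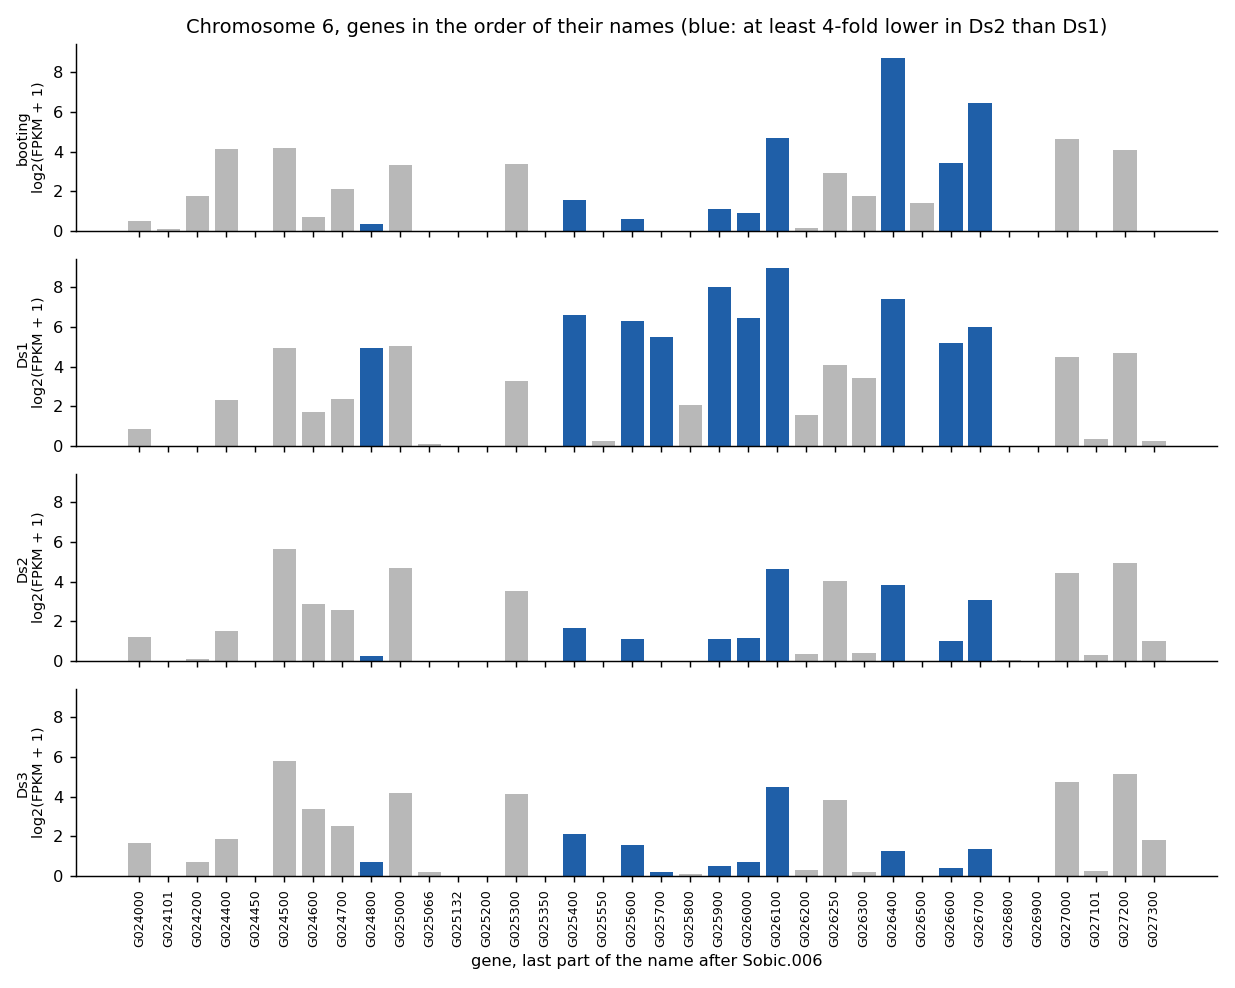
Levels of the named genes around the stretch of chromosome 6, in the order of their names, as log2(FPKM + 1), with booting, Ds1, Ds2 and Ds3 in panels from top to bottom; blue bars are the 10 genes at least 4-fold lower in Ds2 than in Ds1. The 7 blue bars on the left are tallest in the Ds1 panel, while the 3 on the right are also high in booting.

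Runs of neighbouring lower genes were counted over all chromosomes, with 1 locus per gene, the one of highest FPKM, and with genes of the same direction taken as neighbours when at most 3 places apart in name order. This used 218 lower genes, of which 39 (17.9%) fell into 15 runs, and 75 higher genes, of which 2 did so, in 1 run. A larger set has more members within 3 places of each other by number alone, so these shares are not like for like. The share to be met by number alone was not computed. Outside the chromosome 6 stretch 30 lower genes lay in 13 runs, 4 of them with 3 genes and the others with fewer. On chromosome 8, Sobic.008G117300 read 14.9 FPKM at booting, 16.9 at Ds1, 0.780 at Ds2 and 0.208 at Ds3, Sobic.008G117800 read 16.7, 30.8, 1.28 and 1.55, and Sobic.008G118000 read 16.0, 33.5, 1.06 and 0.574. Genes among them that stayed under 10 FPKM had the same order, as Sobic.008G117400 read 8.02 FPKM in Ds1 and 0.264 in Ds2 and Sobic.008G117900 read 4.06 and 0, while the flanking Sobic.008G117200 read 28.2 and 20.2.

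On chromosome 3, Sobic.003G082100, Sobic.003G082200 and Sobic.003G082500 each read under 1 FPKM in booting. They read 37.9, 187 and 41.1 FPKM in Ds1, 1.23, 19.3 and 4.75 in Ds2, and 7.59, 52.2 and 9.44 in Ds3. All 3 were thus above their Ds2 level in Ds3, between Ds2 and Ds1. On chromosome 7, Sobic.007G077001, Sobic.007G077200 and Sobic.007G077300 read 62.3, 57.8 and 46.6 FPKM in Ds1 and 12.5, 7.48 and 3.67 in Ds2, and Sobic.007G077100 between them, with 226 and 57.2, missed the size rule at a log2 difference of -1.97. The 1 run of higher genes was on chromosome 4, where Sobic.004G157100 read 0.370 FPKM in Ds1 and 28.4 in Ds2 and Sobic.004G157300 read 2.64 and 32.4, and their Ds3 values were 23.7 and 47.9.

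Neighbours could also differ in opposite directions. On chromosome 9, Sobic.009G215600 read 5.70 FPKM at booting, 33.4 at Ds1, 0.0515 at Ds2 and 0 at Ds3, and the next gene, Sobic.009G215700, read 0, 55.5, 428 and 498. On chromosome 1, Sobic.001G515700, given above among the genes furthest above Ds1, lies within a few genes of Sobic.001G516000, given above among those furthest below, and of Sobic.001G515800, with 10.7 FPKM in Ds1 and 0.572 in Ds2. By chromosome the share of lower loci ran from 1.35% on chromosome 4 to 3.73% on chromosome 5 and 3.65% on chromosome 6. The 29 lower loci of chromosome 6 include the 10 of the stretch described above. The share of higher loci ran from 0 of 415 loci on chromosome 8 to 1.26% on chromosome 6.

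The direction of these loci was next read in a comparison that shares no library with them, Ds3 minus booting. Of the 76 loci higher in Ds2 than Ds1, 72 (94.7%) were above booting in Ds3, with a median log2 difference of 3.48, and 51 were at least 4-fold so at 10 FPKM or more. Over all 9145 loci 54.9% were above booting, 7.63% at least 4-fold. All loci are no level-matched reference, as 43 of the 76 read under 1 FPKM at booting and 14 were listed at 0. Such loci had little or no room to fall below booting, so their direction was in large part set in advance. A further 675 loci were under 10 FPKM in Ds1 and not counted as higher. These had to reach 10 FPKM in Ds2 to be compared, so they too lay above Ds1 in Ds2 by construction, less than 4-fold, and are no neutral reference. Of them 66.2% were above booting in Ds3, with a median of 0.36. Of the 221 loci lower in Ds2, 163 (73.8%) were below booting in Ds3, with a median of -1.18, against 45.1% of all loci. The 694 loci under 10 FPKM in Ds2 that were not counted as lower had to reach 10 FPKM in Ds1, so all lay below Ds1 in Ds2 by construction. They gave 69.5% and a median of -0.52. By size, 63 of the 221 lower loci (28.5%) were at least 4-fold below booting in Ds3, against 2.6% of all loci and 8.93% of those 694. The 3 higher loci below booting in Ds3 were Sobic.004G259366, Sobic.004G333100 and Sobic.007G227100.

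**Figure D4:**
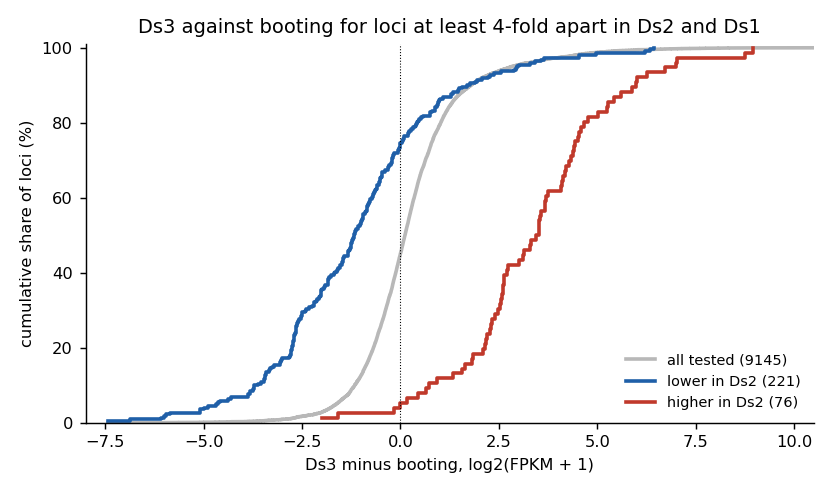
Cumulative share of loci (vertical axis, percent) by their Ds3 minus booting difference on the log2(FPKM + 1) scale (horizontal axis), for all 9145 loci compared (grey), the 221 lower in Ds2 than Ds1 (blue) and the 76 higher (red). The red curve lies to the right, with a median of 3.48, and the blue curve to the left, with a median of -1.18.

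The developmental part of the table, which shares no library with Ds1 or Ds2, held the higher set mostly at low levels. Of its 72 members with a locus of their own there, 46 read under 1 FPKM at the milky stage and 40 at maturity, against 3.83% and 3.88% of all loci, with medians of 0.382 and 0.566 FPKM. The higher set was chosen in part for low Ds1 levels, so all loci are no level-matched reference here either. Against booting 21 of the 72 were above, 38 below and 13 equal at the milky stage, with a median log2 difference of -0.03. At maturity 24 were above, 34 below and 14 equal, with a median of 0. Of all loci 51.3% and 54.9% were above at these stages. With many of the 72 under 1 FPKM, these counts rest on very small differences and are not read as a trend. From the milky stage to maturity 33 of the 72 were above, 26 below and 13 equal, against 51.2% above of all loci and 52.9% of the 616. Of the 197 lower loci with such a locus, 149 (75.6%) were below their booting value at maturity, against 44.8% of all 8219 loci and 56.9% of 633 loci from the 694 described above, which are below Ds1 in Ds2 by construction. The median log2 difference was -0.38, so these are small differences. At maturity 2 of the 197 were at least 4-fold above booting and 3 at least 4-fold below, against 0.0365% and 0.243% of all loci. At the milky stage 54.8% of the lower loci were below booting, against 48.3% of all loci and 54.8% of the 633, while 5 were at least 4-fold above and 6 at least 4-fold below, against 0.243% and 0.45% of all. From the milky stage to maturity 61.4% of the lower loci were below, against 48.4% of all and 50.7% of the 633, with 9 at least 4-fold above and 8 at least 4-fold below, against 0.402% and 0.511% of all. The same booting libraries were read in both parts. Among the 8219 loci the booting value differed between the parts by a median of -0.21 log2, water-limiting minus developmental, with an SD of 0.31 across loci, and 34 were 4-fold apart. None of the 72 higher or 197 lower loci was.

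The largest differences in amount were in genes that the size rule does not reach. Among named loci the losses from Ds1 to Ds2 summed to 239687 FPKM, and 4 loci held 33.7% of this, or 3 loci 30.1% without Sobic.010G039150, whereas the 221 lower loci held 7.75%. Sobic.004G337132 read 97.0 FPKM at booting, 65970 at Ds1, 32599 at Ds2 and 24542 at Ds3, Sobic.001G038050 read 74.5, 49021, 26036 and 20677, and Sobic.001G141300 read 1703, 30465, 14687 and 6479. The log2 differences of these 3 were -1.02, -0.91 and -1.05. Under median-of-ratios scaling they were -1.01, -0.90 and -1.04. Under quantile normalization those of Sobic.004G337132 and Sobic.001G038050 were 0.00 and that of Sobic.001G141300 was -0.89. That normalization gives loci of the same rank in each group the same value, so 0.00 shows an unchanged rank. Such a value cannot show the size of a loss. The fourth, Sobic.010G039150, read 147 FPKM at booting, 29013 at Ds1, 20313 at Ds2 and 32381 at Ds3. Its log2 difference of -0.51 was -0.50 under median-of-ratios scaling and turned to 0.23 under quantile normalization, which reads ranks only. Its direction thus differed between these scalings. Sobic.002G324200, with a log2 difference of -0.65, or -0.28 under quantile normalization, read 8654 FPKM at booting, 9865 at Ds1, 6285 at Ds2 and 5023 at Ds3.

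Gains summed to 69268 FPKM. Sobic.002G075800 gained most, with 264 FPKM at booting, 2707 at Ds1, 6179.8 at Ds2 and 4582 at Ds3, a log2 difference of 1.19. Sobic.003G172800 read 47.7, 827, 3034 and 2308 FPKM, and at a log2 difference of 1.87 it was the nearest of these genes to the size rule, which it passed under quantile normalization, at 2.03, and with the most abundant loci left out, at 2.12. Sobic.009G116700 read 0.664 FPKM at booting, 1197 at Ds1, 2284 at Ds2 and 2143 at Ds3. Sobic.005G228700 read 2322, 2560.4, 3828 and 6596 FPKM, and Sobic.003G397600 read 3198, 5795, 7259 and 5189.

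On the deposited scale, abundant loci tended to read lower in Ds2. The median log2 difference was -0.00 among the 5091 loci whose higher value was 10 to 30 FPKM, -0.13 among 2957 at 30 to 100, -0.35 among 1032 at 100 to 1000 and -0.70 among 65 at 1000 or more. These medians were not recomputed under other scalings, so their signs may depend on the scaling. The median of all loci was -0.08 as deposited and -0.06 under median-of-ratios scaling. It was 0.04 under quantile normalization and 0.18 with the most abundant loci left out and totals made equal. The share of lower loci was 2.06%, 2.40%, 4.26% and 1.54% in these classes, and that of higher loci 0.923%, 0.643%, 0.872% and 1.54%. Some calls belong to part of a gene only. In 11 genes that the table splits over 2 loci, 1 locus passed the size rule and the other did not. In several of these, Sobic.K044411 among them, the other locus stayed under 10 FPKM in both groups and so could not pass. At Sobic.002G421600 that other locus also read lower in Ds2, with 3.12 FPKM in Ds1 and 0.762 in Ds2. Sobic.K044411 read 101.8 FPKM in Ds1 and 0 in Ds2 at 1 locus and 1.73 and 2.13 at its other, and Sobic.004G198701 read 15.1 and 0 at 1 locus and 8824 and 6761 at its other.

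Values near the threshold show how fine its line is. Just inside it, Sobic.006G221500 read 2.03 FPKM in Ds1 and 11.1 in Ds2, Sobic.003G244100 read 6.62 and 29.6, Sobic.001G489500 read 11.9 and 2.20, and Sobic.003G416500 read 179 and 43.2. Just outside it, Sobic.001G496500 read 7.40 and 32.4 FPKM, Sobic.009G025500 read 14.8 and 61.5, Sobic.003G106500 read 32.2 and 7.30, and Sobic.006G149700 read 24.7 and 5.45.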

How the data were processed

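RNA was measured in 12 libraries of sorghum stem internode, 2 in each of 6 groups. The kit was TruSeq Stranded Total RNA, used after a modified Trizol extraction, per the labels' protocols. The submitters' processing notes list Bowtie2 2.2.9, Cuffdiff, cutadapt 1.8.1 and HISAT2 2.0.5 without saying what each did; for the genome build, none is given in the sources used here. The authors deposited FPKM values, 1 per group and locus, in a developmental part and a water-limiting part, which were scaled separately. Booting appears in both parts, in other columns of the deposited table, as FPKM per the file headers. How the 2 libraries of a group were combined is not stated.

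Differences were taken as log2(FPKM + 1) within a part. Loci naming no gene were left out. A limma test was meant only for values per library, which the table does not give. No column belonged to another series (0). The members, lists and rules were chosen with earlier results of these data known. Genes named are the 12 furthest above and 12 furthest below Ds1 in Ds2 past the size rule among genes whose name no other locus shares, the 5 largest gains and losses in FPKM, and the 2 nearest to the threshold on each side. The chromosome 6 stretch, the rule for runs, the classes by booting level, the sets of low loci not counted, the developmental comparisons and the other genes named were chosen after values were seen. The 38 gene lists planned by product name could not be filled, because no product names match. The size rule was also run on simulated data. The deposited values give no replicate spread to simulate from, so that run sets no error rate for the calls made here. Python 3.11.15, pandas 2.3.3 and numpy 2.4.6 were used.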

Additional observations from a re-analysis of the deposited data

Results flagged for a closer look

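Loci that name no gene were left out of the comparison and held 9.41% of all FPKM in Ds1 and 7.40% in Ds2, above the 1.75% they held in booting. Of 191 such loci at 10 FPKM or more in Ds1 or Ds2, 2 were higher and 8 lower in Ds2 by the size rule, 5.24% in all, against 3.25% of the named loci, of which 0.831% were higher and 2.42% lower.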

How the results depend on the processing

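The counts of higher and lower loci, 76 and 221, depended on where the line was drawn: they were 24 and 113 with a pseudocount of 5, 19 and 75 with a minimum of 50 FPKM, 341 and 752 at a ratio of 2, and 17 and 86 at a ratio of 8. With a pseudocount of 0.1, no minimum, median-of-ratios scaling, quantile normalization, the most abundant loci left out, unnamed loci included, shared names left out, and 2 alternatives chosen after seeing the data (the chromosome 6 stretch left out, 1 locus per gene), they stayed within 1.5 times, at 75 to 105 and 155 to 310. Lower loci outnumbered higher ones in each setting. The share of higher loci above booting in Ds3 ran from 89.5% to 96.0% over the 10 alternatives in which it was recomputed, which leave out both other ratios and 1 locus per gene, and that of lower loci below booting from 68.0% to 77.4%. The range for the higher loci does not lift the limit that many of them read near the floor at booting. Of the 42 gene differences, 20 moved by more than 0.31 log2 with a pseudocount of 0.1, 29 with 5 and 6 under quantile normalization, where 1 more moved so far and changed sign. Under the last, 2 of the largest losses went to 0.00 and that of Sobic.010G039150 reversed, to 0.2301. Quantile normalization gives loci of the same rank in each group the same value, so these values follow from ranks and not from amounts. With a pseudocount of 5, 7 of the genes past the size rule no longer passed it. None moved so far under median-of-ratios scaling, nor did any of the 35 genes that remained with the most abundant loci left out, although 2 of these no longer passed the size rule and 3 newly did. Read depth is unknown. No replicate could be left out, and the gene lists planned could not be run. No paired analysis was possible because the table gives 1 pooled value per group.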
